A study of Rattus norvegicus with 9 samples.

Results

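Transcript levels of 6 regulators of G-protein signalling, Rgs2, Rgs3, Rgs4, Rgs5, Rgs10 and Rgs16, were examined by RNA sequencing in rat vascular smooth muscle cells. The genes were chosen by symbol, ignoring case, as RGS genes known from vascular mural cells. The 6 symbols matched 7 rows of the 26401 gene rows analysed, because Rgs3 was listed under 2 gene identifiers. Levels are given as FPKM, fragment counts divided by transcript length and by library size, so that genes can be set side by side.

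The cells were wild-type (WT) S31 cells, a primary vascular smooth muscle cell culture that came from small vessels of the hearts of male Wistar Kyoto rats. All 3 sets shared 48 h of starvation in serum-free medium with lactalbumin hydrolysate before treatment. The sets are named here by their column names, PDGF-NS, IGF-NS and LH-NS, with 3 libraries each. The sample records contradict these names: records titled IGF-1 point to the PDGF-NS columns, and records titled PDGF-BB point to the IGF-NS columns. By the records, the PDGF-NS columns would hold recombinant human IGF-1 at 25 ng/ml with RNA taken after 24 h, and the IGF-NS columns recombinant rat PDGF-BB at 25 ng/ml with RNA taken after 48 h. By the column names the 2 growth factors would be exchanged. The LH-NS libraries were controls without growth factor, taken after 24 h. Because 1 growth factor was sampled at 48 h and everything else at 24 h, growth factor and time cannot be told apart for that set. The labels do not say whether replicates were separate cultures, so the p-values measure the spread between these libraries, which may be technical.

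RGS proteins end a receptor's signal. A G-protein-coupled receptor loads GTP onto the alpha subunit of a heterotrimeric G protein, and an RGS protein speeds up the hydrolysis of that GTP so that the subunit returns to its resting state. In vascular muscle the receptors for endothelin, angiotensin and other constrictors signal through G proteins of the Gq, Gi and G12/13 classes. Rgs2 acts mainly on Gq and limits constrictor signalling, and mice without it are hypertensive. Rgs3, Rgs4, Rgs5 and Rgs16 are related small or modular RGS proteins that act on Gi and Gq. Rgs10 acts mainly on Gi, and Rgs5 is widely used as a marker of pericytes.

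The sequences around the transcription starts are shown for Rgs2, Rgs10 and Rgs16. Against LH-NS, Rgs2 was called higher in PDGF-NS only, Rgs10 was called higher in both growth factor sets, and Rgs16 was called lower in IGF-NS. Each window holds 300 bases, 250 before the RefSeq start and 50 after it, on build GRCr8, and windows were found for 6 of the 6 genes. The build behind the FPKM values is not given in the sources used here. Capitals mark matches on either strand to the letters searched.
Rgs2 promoter, chr13:58352617-58352916, minus strand: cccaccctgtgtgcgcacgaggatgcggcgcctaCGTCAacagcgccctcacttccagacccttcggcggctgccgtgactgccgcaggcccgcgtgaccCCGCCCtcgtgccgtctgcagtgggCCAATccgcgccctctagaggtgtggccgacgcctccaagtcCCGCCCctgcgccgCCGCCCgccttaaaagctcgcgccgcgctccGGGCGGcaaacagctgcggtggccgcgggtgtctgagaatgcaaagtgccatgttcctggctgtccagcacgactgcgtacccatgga
Rgs10 promoter, chr1:192418028-192418327, minus strand: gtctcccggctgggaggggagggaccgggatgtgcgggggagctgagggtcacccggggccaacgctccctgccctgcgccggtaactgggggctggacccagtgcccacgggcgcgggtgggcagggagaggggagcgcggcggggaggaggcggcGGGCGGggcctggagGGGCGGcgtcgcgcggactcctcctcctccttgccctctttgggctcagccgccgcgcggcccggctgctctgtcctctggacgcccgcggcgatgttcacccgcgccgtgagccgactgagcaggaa
Rgs16 promoter, chr13:68437870-68438169, plus strand: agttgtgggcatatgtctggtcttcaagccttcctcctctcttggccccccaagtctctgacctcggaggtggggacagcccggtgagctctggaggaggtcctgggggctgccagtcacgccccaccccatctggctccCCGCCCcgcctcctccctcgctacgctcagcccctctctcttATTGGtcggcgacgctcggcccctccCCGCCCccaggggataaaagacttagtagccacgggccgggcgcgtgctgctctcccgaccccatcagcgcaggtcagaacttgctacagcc
The Rgs2 window held 1 match to the cAMP response half-site TGACG, 1 to the CCAAT box CCAAT and 4 to the GC box GGGCGG, in either orientation. The half-site in Rgs2 lay at positions -216 to -212 relative to the start. The Rgs10 window held 2 GC boxes and no other match. The Rgs16 window held 1 CCAAT box and 2 GC boxes. Of all 33469 promoter windows of the same length, 21.2% held the half-site, 37.5% a CCAAT box and 33.1% a GC box. The other motifs searched were the full cAMP response element TGACGTCA (1.83% of windows), the AP-1 site TGANTCA (7.33%), the FOXO site TGTTTAC (3.78%), the TATA box TATAAA (14.2%) and the CArG box (1.64%). The full cAMP response element contains the half-site, so these 2 searches overlap. The windows of Rgs3 and Rgs4, not printed here, each held 1 half-site and 1 match to TATAAA. The TATAAA match lay at -184 to -179 in Rgs3 and at -42 to -37 in Rgs4. Rgs3 also held 2 GC boxes, Rgs4 2 CCAAT boxes, and the Rgs5 window 1 GC box. These matches describe letters only.

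Rgs10 and Rgs3 were higher in both growth factor sets than in LH-NS, Rgs2 was higher in PDGF-NS than in either other set, and Rgs16 was lower in IGF-NS than in LH-NS. Rgs4 was near 0 in both growth factor sets and close to 1 FPKM in LH-NS. Rgs5 was listed at 0 in all 9 libraries. Comparisons were made with limma on log2(FPKM + 1), in which a fold change understates the change of a low gene. The 11376 genes that averaged 1 FPKM or more across the libraries were tested, and a gene was called at a Benjamini-Hochberg adjusted p under 0.05. Rgs2, Rgs3, Rgs10 and Rgs16 passed this filter, and Rgs4, Rgs5 and the second Rgs3 row did not.

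**Figure D1:**
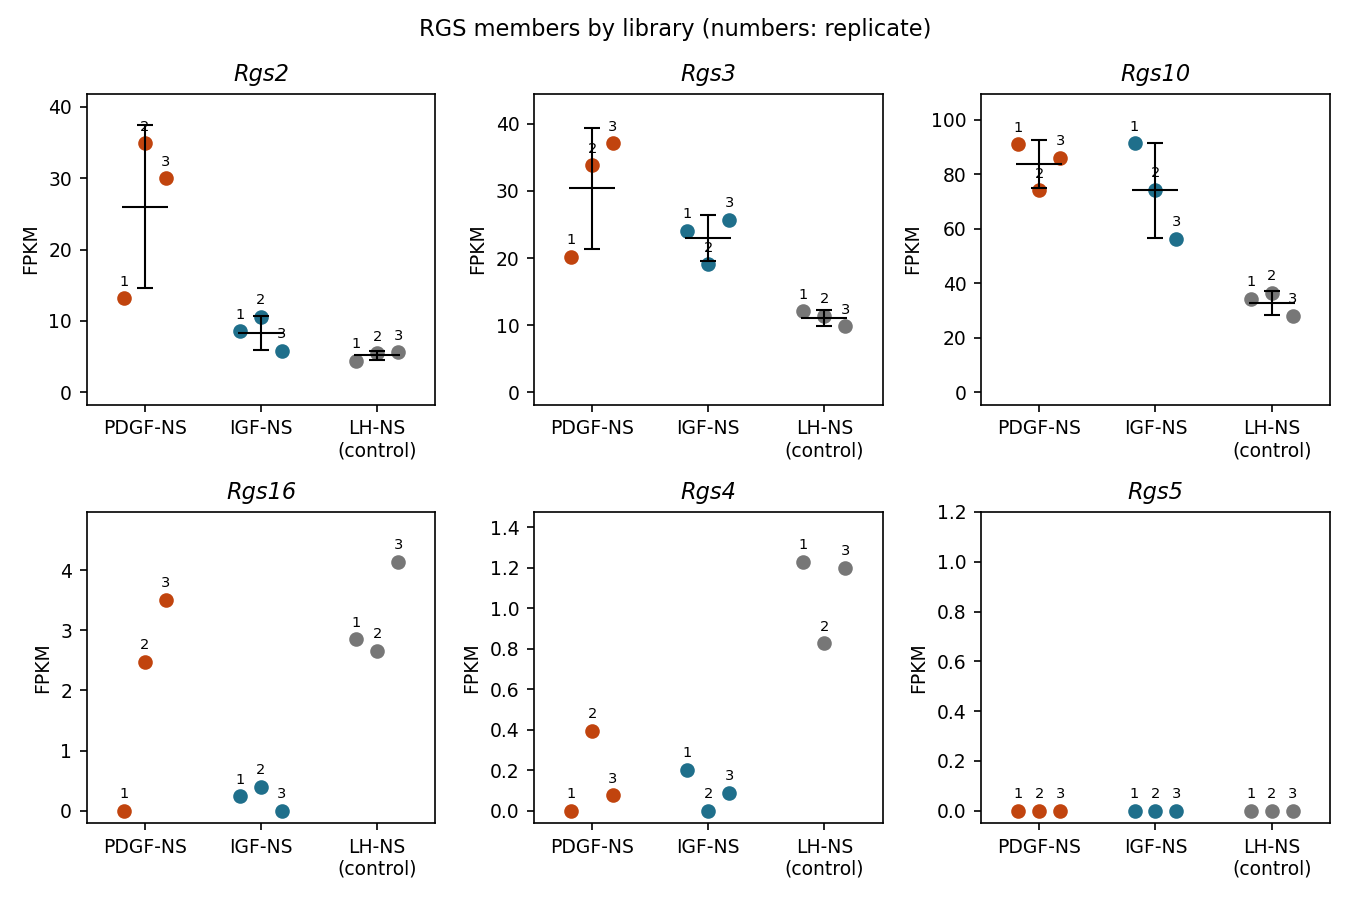
FPKM of the 6 genes in each library (vertical axes, linear, 1 panel a gene) for PDGF-NS, IGF-NS and LH-NS; points are libraries with their replicate number, and bars give the mean and SD of 3 libraries where no library was listed at 0 (Rgs2, Rgs3 and Rgs10). The Rgs10 points of both growth factor sets, from 56.4 to 91.4 FPKM, lie above the LH-NS points, which reach 36.5 FPKM, and Rgs5 is at 0 throughout.

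In PDGF-NS minus LH-NS, 3 of the 4 tested members were higher and none was lower by limma. At an unadjusted p under 0.05 the counts were likewise 3 higher and 0 lower. Of all genes tested, 31.0% were called in this comparison, 20.7% higher and 10.2% lower. The median log2 fold change was 1.33 over the 4 tested members and 0.13 over all genes tested. Rgs4 enters none of these counts or medians, because its mean fell below the filter. Without the filter it was lower in PDGF-NS minus LH-NS (-0.86, limma adjusted p = 0.0032) and in IGF-NS minus LH-NS (-0.93, limma adjusted p = 0.0038). In IGF-NS minus LH-NS, 2 members were higher and 1 was lower, against 24.9% of all genes called, 17.4% higher and 7.48% lower. There the median was 0.78 over the members and 0.15 over all genes. In PDGF-NS minus IGF-NS, 1 member was higher and none was lower by limma, with 2 higher and 0 lower at an unadjusted p under 0.05. Of all genes, 15.9% were called in that comparison, 8.33% higher and 7.55% lower. The 2 comparisons with LH-NS share the same 3 control libraries and are not independent of each other.

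Rgs2, the Gq-directed member, had 13.2, 34.9 and 30 FPKM in PDGF-NS, 8.57, 10.6 and 5.83 FPKM in IGF-NS, and 4.38, 5.49 and 5.61 FPKM in LH-NS. Every PDGF-NS library lay above every library of the other sets, and PDGF-NS library 1 lay far below the other PDGF-NS libraries. The means were 26 ± 11.4 FPKM in PDGF-NS, 8.33 ± 2.39 FPKM in IGF-NS and 5.16 ± 0.679 FPKM in LH-NS (SD, n = 3 each). The mean in PDGF-NS was 5.05-fold that in LH-NS. The log2 fold change was 2.03 ± 0.32 (standard error, 95% interval 1.31 to 2.75, limma adjusted p = 0.0011), and it stayed called under every alternative setting tried. In this comparison 48.6% of all genes had libraries that did not overlap between the sets.

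Between IGF-NS and LH-NS the Rgs2 libraries did not overlap either, as held for 39.0% of all genes, but the gap was small. The log2 fold change was 0.57 ± 0.32 (95% interval -0.14 to 1.29, limma adjusted p = 0.22), so no difference was called. Set against IGF-NS directly, Rgs2 was higher in PDGF-NS by 1.46 ± 0.32 on the log2 scale (95% interval 0.74 to 2.18, limma adjusted p = 0.013), a 3.12-fold ratio of means. The call was lost without PDGF-NS library 2 (log2 fold change 1.20, adjusted p = 0.051) or library 3 (1.31, adjusted p = 0.06). The libraries of PDGF-NS and IGF-NS did not overlap for Rgs2, as for 36.3% of all genes.

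Rgs3 encodes an RGS protein with several long and short isoforms that acts on Gi and Gq. Its main row had 20.2, 33.8 and 37.1 FPKM in PDGF-NS, 24.1, 19.1 and 25.7 FPKM in IGF-NS, and 12.1, 11.4 and 9.8 FPKM in LH-NS. All 6 growth factor libraries were above all LH-NS libraries, and PDGF-NS library 1 lay within the range of IGF-NS. Such a lack of overlap with LH-NS was common, at 48.6% of all genes for PDGF-NS and 39.0% for IGF-NS. The log2 fold change was 1.33 ± 0.22 in PDGF-NS minus LH-NS (limma adjusted p = 0.0013), with means of 30.3 ± 8.96 FPKM in PDGF-NS and 11.1 ± 1.19 FPKM in LH-NS (SD, n = 3 each). In IGF-NS minus LH-NS it was 0.98 ± 0.22 (limma adjusted p = 0.0095), with a mean of 23 ± 3.45 FPKM in IGF-NS. Both calls stood under every alternative setting tried.

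Between the growth factor sets, Rgs3 differed by 0.35 ± 0.22 in PDGF-NS minus IGF-NS (95% interval -0.13 to 0.83, limma adjusted p = 0.32). Without PDGF-NS library 1 the difference was 0.61 and was called (adjusted p = 0.044). The second Rgs3 row was at most 0.112 FPKM in any library and was not tested. Reads of 1 gene may be divided between these rows by the authors' counting, so the Rgs3 values are those of the main row only.

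Rgs10 had 91.1, 74.1 and 86.1 FPKM in PDGF-NS, 91.4, 74.4 and 56.4 FPKM in IGF-NS, and 34.3, 36.5 and 28 FPKM in LH-NS. The growth factor libraries overlapped each other, and all 6 were above all LH-NS libraries. Of all genes, 48.6% had no overlap between PDGF-NS and LH-NS, and 39.0% had none between IGF-NS and LH-NS. The share with both at once was not computed. The means were 83.8 ± 8.73 FPKM in PDGF-NS, 74.1 ± 17.5 FPKM in IGF-NS and 32.9 ± 4.37 FPKM in LH-NS (SD, n = 3 each). The log2 fold change was 1.32 ± 0.18 in PDGF-NS minus LH-NS (limma adjusted p = 0.00049) and 1.13 ± 0.18 in IGF-NS minus LH-NS (limma adjusted p = 0.0021). Both calls stood under every alternative setting tried. Between the growth factor sets the difference was 0.20 ± 0.18 (95% interval -0.21 to 0.60, limma adjusted p = 0.53).

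Rgs16, which acts on Gi and Gq, was a low gene in these cells. It was listed at 0, 2.48 and 3.51 FPKM in PDGF-NS, 0.242, 0.4 and 0 FPKM in IGF-NS, and 2.85, 2.66 and 4.14 FPKM in LH-NS. All IGF-NS libraries were below all LH-NS libraries, and 39.0% of all genes had no overlap between these sets. PDGF-NS was split between library 1, listed at 0, and 2 libraries within or near the control range. In IGF-NS minus LH-NS the log2 fold change was -1.79 ± 0.47 (95% interval -2.84 to -0.75, limma adjusted p = 0.02). The call was lost without IGF-NS library 1 (-1.82, adjusted p = 0.056), IGF-NS library 3 (-1.66, adjusted p = 0.051) or LH-NS library 3 (-1.64, adjusted p = 0.063). In size the log2 difference depended on the pseudocount, at -3.66 with 0.1 FPKM and -0.65 with 5 FPKM.

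In PDGF-NS minus LH-NS, Rgs16 had a log2 fold change of -0.74 ± 0.47 (95% interval -1.78 to 0.31, limma adjusted p = 0.26), and -0.07 without PDGF-NS library 1. In PDGF-NS minus IGF-NS it was 1.06 ± 0.47 (95% interval 0.01 to 2.10, limma adjusted p = 0.16). Without PDGF-NS library 1 it was 1.72, with an adjusted p of 0.0021. The same library was the lowest of its set for Rgs2 and Rgs3 and the highest for Rgs10. Over all tested genes it stood furthest apart in its set: 1.93% of genes were more than 2-fold from the mean of the other PDGF-NS libraries, against 1% and 0.976% for libraries 2 and 3. The means used for libraries 2 and 3 include library 1. The figure for the 3 LH-NS libraries was 3.55%, 1.32% and 1.95%.

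**Figure D2:**
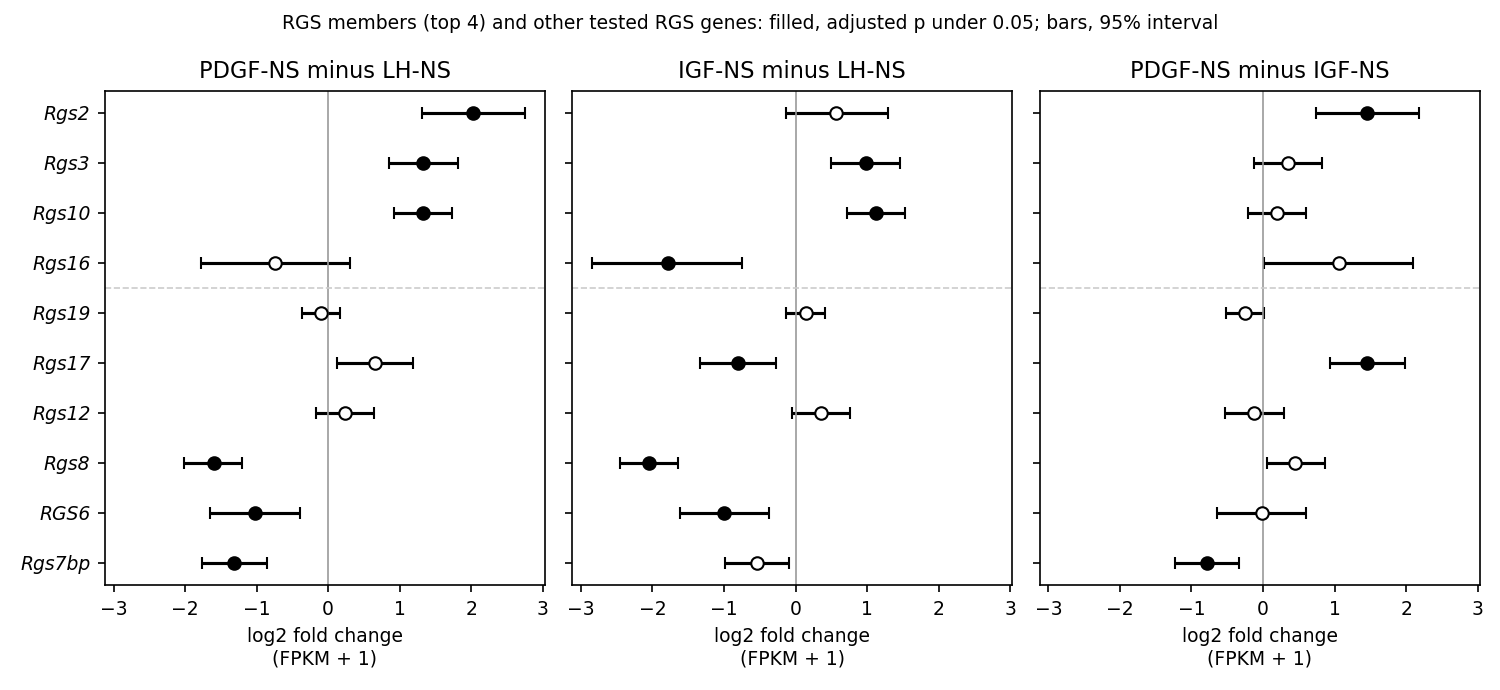
Log2 fold change of FPKM + 1 (horizontal axis) with its 95% interval for the 4 tested members, above the dashed line, and the other tested RGS genes and Rgs7bp, below it, in the 3 comparisons; filled points passed an adjusted p under 0.05. Rgs3 and Rgs10 are right of 0 in both comparisons with LH-NS, and Rgs8 is left of 0 in both, at -1.60 and -2.05.

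Rgs4, which acts on Gi and Gq, was listed at 0, 0.395 and 0.0762 FPKM in PDGF-NS, 0.203, 0 and 0.088 FPKM in IGF-NS, and 1.23, 0.828 and 1.2 FPKM in LH-NS. Every LH-NS library was above every growth factor library. Among the genes that passed the filter, 48.6% had no overlap between PDGF-NS and LH-NS, and 39.0% had none between IGF-NS and LH-NS. With a mean of 0.447 FPKM over all libraries it was left out of the main test. When every gene with a value above 0 in at least 1 library was kept, its log2 fold change was -0.86 ± 0.14 in PDGF-NS minus LH-NS (limma adjusted p = 0.0032) and -0.93 ± 0.14 in IGF-NS minus LH-NS (limma adjusted p = 0.0038). Under that setting the difference between PDGF-NS and IGF-NS was 0.07 (adjusted p = 0.83).

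Rgs5, the pericyte marker, was listed at 0 in every library, which cannot be read as absence here. Pgk1, Hprt1 and Tuba1a, genes that nearly all cells use, were also listed at 0 in all 9 libraries. Tbp, Rplp0 and Eef1a1, likewise in wide use, were above 0 in all 9 libraries. All of these genes were chosen after their values were seen. Of the 26401 rows analysed, 10199 were listed at 0 in every library. In addition, 31 genes with a median above 5 FPKM were listed at 0 in at least 1 library. For scale, 8226 genes with a symbol averaged 5 FPKM or more. The zeros of Rgs4 and Rgs16 carry the same limit.

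In the FPKM of the whole family, Rgs10 and Rgs19 made up most of the RGS signal. The table held 21 rows with an RGS gene symbol, of which 9 passed the filter and 5 were listed at 0 throughout, among them Rgs5. Summed over the 21 rows, RGS FPKM came to 212, 237 and 247 in PDGF-NS, 214, 196 and 199 in IGF-NS, and 147, 155 and 152 in LH-NS. All growth factor libraries had a higher sum than all LH-NS libraries. The members held 58.7%, 61.4% and 63.6% of that sum in PDGF-NS, 58.1%, 53.2% and 44.2% in IGF-NS, and 37.3%, 36.7% and 32.2% in LH-NS.

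In PDGF-NS the order of mean FPKM was Rgs10, Rgs19, Rgs3, Rgs2 and Rgs17, in which Rgs10 and Rgs19 overlapped, as did Rgs3 and Rgs2. In IGF-NS the order was Rgs19, Rgs10, Rgs3, Rgs2 and Rgs17, and of these neighbours Rgs19 and Rgs10 overlapped. In LH-NS, Rgs19 led at 82.2 FPKM, above Rgs10 at 32.9 FPKM and Rgs3 at 11.1 FPKM, with no overlap between these neighbours. Rgs8, Rgs17 and Rgs2 followed there at 5.21, 5.17 and 5.16 FPKM with overlapping libraries, and Rgs16 came next at 3.22 FPKM. Rgs19, also known as GAIP, acts on Gi and averaged 76.3 ± 1.19 FPKM in PDGF-NS, 91.3 ± 12.2 FPKM in IGF-NS and 82.2 ± 4.26 FPKM in LH-NS (SD, n = 3 each). Its log2 fold change was -0.10 in PDGF-NS minus LH-NS (95% interval -0.37 to 0.17) and 0.14 in IGF-NS minus LH-NS (95% interval -0.13 to 0.41), and neither was called.

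**Figure D3:**
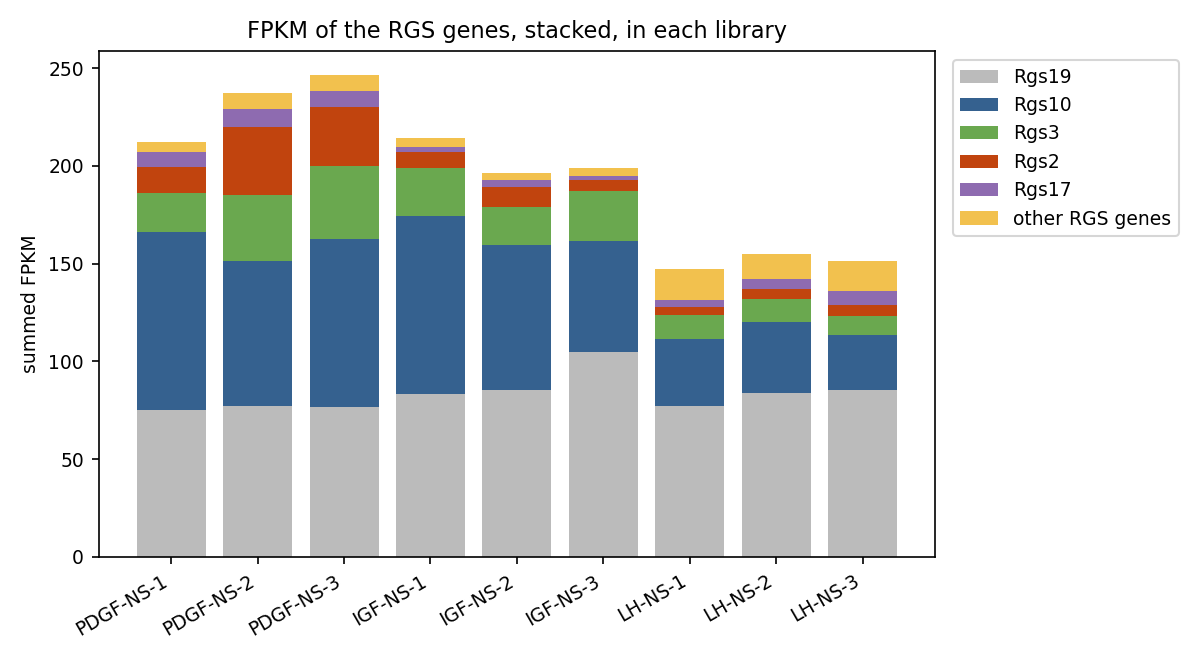
FPKM of the RGS genes stacked in each of the 9 libraries (vertical axis, summed FPKM from 0), with PDGF-NS at the left, IGF-NS in the middle and LH-NS at the right. The Rgs19 block is of like height in all libraries, between 75 and 105 FPKM, while the Rgs10 block reaches 56.4 to 91.4 FPKM in the growth factor libraries and 28 to 36.5 FPKM in LH-NS.

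Among other RGS and RGS-like genes, 11 of the 23 in the table passed the filter. In PDGF-NS minus LH-NS, 2 were higher and 3 lower, with a median log2 fold change of 0.20. In IGF-NS minus LH-NS, 1 was higher and 3 lower (median -0.05), and in PDGF-NS minus IGF-NS, 1 was higher and 1 lower (median 0.01). The shares called over all genes were 31.0%, 24.9% and 15.9%, in the same order. Rgs8, a small RGS protein best known from neurons, was lower in both growth factor sets. It had 0.855, 1.2 and 1.08 FPKM in PDGF-NS, 0.763, 0.424 and 0.318 FPKM in IGF-NS, and 5.95, 4.81 and 4.87 FPKM in LH-NS. Its log2 fold change was -1.60 in PDGF-NS minus LH-NS (limma adjusted p = 0.00016) and -2.05 in IGF-NS minus LH-NS (limma adjusted p = 7.2e-05), both called under every alternative that tested it. The filter admitted Rgs8 through LH-NS, the set where it is high, as it averaged 1.04 FPKM in PDGF-NS and 0.501 FPKM in IGF-NS. Rgs4, with a like pattern at a lower level, was left out by the same filter. Rgs8 lies next to Rgs16 on chromosome 13 in the GRCr8 annotation, with 0 coding genes between them. Rgs4 and Rgs5 are likewise neighbours there, as are Rgs2 and Rgs13, and Rgs13 was listed at 0 throughout.

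Rgs17, which acts on Gi and Gz, had 7.58, 9.31 and 8.6 FPKM in PDGF-NS, 2.41, 3.41 and 1.73 FPKM in IGF-NS, and 3.5, 4.99 and 7.03 FPKM in LH-NS. The libraries of the 3 sets did not overlap, but only the gap between PDGF-NS and IGF-NS was called under all alternatives run. No overlap was seen for 48.6% of all genes in PDGF-NS minus LH-NS, 39.0% in IGF-NS minus LH-NS and 36.3% in PDGF-NS minus IGF-NS. In PDGF-NS minus IGF-NS its log2 fold change was 1.46 ± 0.24 (limma adjusted p = 0.0024). In PDGF-NS minus LH-NS it was 0.66 (95% interval 0.13 to 1.18, limma adjusted p = 0.059) and was not called. In IGF-NS minus LH-NS it was -0.80 (limma adjusted p = 0.033), a call lost without PDGF-NS library 3 (adjusted p = 0.053), IGF-NS library 1 (0.089) or 3 (0.086), or LH-NS library 2 (0.074) or 3 (0.1). It was also lost with only the 6 libraries of the comparison (0.077) and with no filter on low values (0.063). Rgs7bp, which anchors another group of RGS proteins at the membrane, averaged 2.55 ± 0.809 FPKM in PDGF-NS and 7.66 ± 0.319 FPKM in LH-NS (SD, n = 3 each, log2 fold change -1.31, limma adjusted p = 0.00094). Snx14, a sorting nexin with an RGS-like domain, averaged 15.1 ± 0.7 FPKM in PDGF-NS and 6.41 ± 1.22 FPKM in LH-NS (log2 fold change 1.13, limma adjusted p = 0.0011). RGS6, which works with the G protein beta subunit Gnb5, averaged 0.767 ± 0.643 FPKM in PDGF-NS, 0.76 ± 0.439 FPKM in IGF-NS and 2.47 ± 0.507 FPKM in LH-NS (SD, n = 3 each). RGS6 likewise passed the filter only through LH-NS. It was lower in PDGF-NS than in LH-NS (log2 fold change -1.02, limma adjusted p = 0.020) and in IGF-NS than in LH-NS (limma adjusted p = 0.027). The first call was lost without PDGF-NS library 3 (adjusted p = 0.081), PDGF-NS library 2 (0.074) or LH-NS library 3 (0.066). The second was lost without IGF-NS library 1 (adjusted p = 0.1) or 2 (0.072), LH-NS library 2 (0.051) or 3 (0.085), and with a pseudocount of 0.1 FPKM (0.051). Rgs12, an RGS protein of many domains, was not called in any comparison, with log2 fold changes of 0.23 in PDGF-NS minus LH-NS, 0.36 in IGF-NS minus LH-NS and -0.12 in PDGF-NS minus IGF-NS.

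Calls among the receptors that RGS proteins act downstream of went in both directions, as they did over all genes. Of 17 tested vascular G-protein-coupled receptors, 5 were higher and 3 lower in PDGF-NS minus LH-NS, and 6 were higher and 5 lower in IGF-NS minus LH-NS. Over all genes, 31.0% were called in PDGF-NS minus LH-NS (20.7% higher, 10.2% lower) and 24.9% in IGF-NS minus LH-NS (17.4% higher, 7.48% lower). Ednra, the endothelin A receptor, averaged 68.1 ± 6.58 FPKM in PDGF-NS, 44.1 ± 2.93 FPKM in IGF-NS and 6.66 ± 0.363 FPKM in LH-NS (SD, n = 3 each). Its log2 fold change was 3.17 in PDGF-NS minus LH-NS (limma adjusted p = 4.3e-07) and 2.56 in IGF-NS minus LH-NS (limma adjusted p = 3.1e-06). Agtr1a, an angiotensin II receptor, was higher by 1.25 in PDGF-NS minus LH-NS (limma adjusted p = 0.00024) and by 1.35 in IGF-NS minus LH-NS (limma adjusted p = 0.00032). F2r, a thrombin receptor, averaged 128 ± 15.4 FPKM in PDGF-NS and 396 ± 49 FPKM in LH-NS (SD, n = 3 each, log2 fold change -1.63, limma adjusted p = 2.5e-05). Avpr1a, a vasopressin receptor, averaged 11.9 ± 0.992 FPKM in PDGF-NS, 2.3 ± 0.44 FPKM in IGF-NS and 14.1 ± 3.66 FPKM in LH-NS, and it was lower in IGF-NS than in LH-NS (log2 fold change -2.17, limma adjusted p = 7.1e-05).

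Of 24 tested G protein subunit rows, 9 were higher and 1 lower in PDGF-NS minus LH-NS, 5 higher and 1 lower in IGF-NS minus LH-NS, and 3 higher and 0 lower by limma in PDGF-NS minus IGF-NS, where an unadjusted p under 0.05 also gave 3 and 0. The shares of all genes called in these comparisons were 31.0%, 24.9% and 15.9%. The alpha subunit Gna13 had 31.7, 34.3 and 41.5 FPKM in PDGF-NS, 18.1, 22.1 and 21.3 FPKM in IGF-NS, and 15, 10.8 and 12.5 FPKM in LH-NS. The 3 sets did not overlap for Gna13. Set by set, a lack of overlap held for 48.6% of all genes in PDGF-NS minus LH-NS, 39.0% in IGF-NS minus LH-NS and 36.3% in PDGF-NS minus IGF-NS. The beta subunit Gnb4 had 14.4, 31.4 and 30.2 FPKM in PDGF-NS, 4.74, 7.33 and 5 FPKM in IGF-NS, and 6.8, 6.9 and 6.99 FPKM in LH-NS. Gnb4 was higher in PDGF-NS than in LH-NS (log2 fold change 1.66, limma adjusted p = 0.0012) and than in IGF-NS (1.92, limma adjusted p = 0.00098), with library 1 again the lowest of the PDGF-NS set.

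Of 23 tested effectors, 5 were higher and 5 lower in PDGF-NS minus LH-NS. In IGF-NS minus LH-NS, 0 were higher and 8 lower by limma, with 1 higher and 10 lower at an unadjusted p under 0.05. Over all genes, 20.7% were higher and 10.2% lower in PDGF-NS minus LH-NS, against 17.4% and 7.48% in IGF-NS minus LH-NS. Itpr3, an inositol trisphosphate receptor that releases stored calcium after Gq signalling, averaged 13.3 ± 1.27 FPKM in PDGF-NS, 2.73 ± 0.41 FPKM in IGF-NS and 1.95 ± 0.322 FPKM in LH-NS (SD, n = 3 each). Its log2 fold change was 2.29 in PDGF-NS minus LH-NS (limma adjusted p = 9e-06). Itpr1, a related channel, was lower in both growth factor sets, with log2 fold changes of -0.81 in PDGF-NS minus LH-NS (limma adjusted p = 0.0025) and -1.36 in IGF-NS minus LH-NS (limma adjusted p = 0.00025). Prkg1, the cGMP-dependent kinase known to phosphorylate and activate Rgs2, averaged 19.2 ± 1.03 FPKM in PDGF-NS and 8.94 ± 0.55 FPKM in IGF-NS (SD, n = 3 each, log2 fold change 1.02, limma adjusted p = 0.00053). In LH-NS it averaged 14.7 ± 1.94 FPKM. Unlike Rgs2, Prkg1 was called lower in IGF-NS than in LH-NS, also under all 19 alternatives. Its call as higher in PDGF-NS than in LH-NS was lost in 16 of 19 alternatives.

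Of 16 tested receptor kinases, arrestins and other modulators, 3 were higher and 3 lower in PDGF-NS minus LH-NS, and 2 were higher and 2 lower in IGF-NS minus LH-NS. These counts were near the shares called over all genes, 31.0% and 24.9%. Ramp3, a receptor partner protein that shapes adrenomedullin signalling, had 11.7, 12.9 and 10.7 FPKM in PDGF-NS, 0.18, 0.153 and 0.195 FPKM in IGF-NS, and 0.454, 0.336 and 1.29 FPKM in LH-NS. It was higher in PDGF-NS than in LH-NS by 2.95 on the log2 scale (limma adjusted p = 1.3e-05). Ramp3 passed the filter only through PDGF-NS, the set where it is high. Cav1, a caveolar coat protein, averaged 359 ± 35.8 FPKM in PDGF-NS and 904 ± 91.5 FPKM in LH-NS (SD, n = 3 each, log2 fold change -1.33, limma adjusted p = 0.00011).

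Marker genes of the labelled cell type and of other cells were read beside the members. For comparison, 20.7% of all genes were higher and 10.2% lower in PDGF-NS minus LH-NS, and 17.4% were higher and 7.48% lower in IGF-NS minus LH-NS. Of 14 vascular smooth muscle markers 13 passed the filter. Their summed FPKM ran from 1422 to 1621 in PDGF-NS, 1700 to 1830 in IGF-NS and 5833 to 7478 in LH-NS. Of the 13, 12 were lower in PDGF-NS minus LH-NS and 10 were lower in IGF-NS minus LH-NS. The members went both ways beside these markers. Rgs3 and Rgs10 were called higher in both comparisons, and Rgs2 only in PDGF-NS minus LH-NS. Rgs16 was called lower in IGF-NS minus LH-NS, and Rgs4, tested only without the filter, was lower in both. Of 20 pericyte and mural marker rows 12 passed the filter, with 5 higher and 3 lower in PDGF-NS minus LH-NS and 2 higher and 3 lower in IGF-NS minus LH-NS. Within that list Anpep averaged 187 ± 48.2 FPKM in PDGF-NS, 22.3 ± 5.49 FPKM in IGF-NS and 7.25 ± 1.17 FPKM in LH-NS (SD, n = 3 each). It was higher than LH-NS in both (log2 fold changes 4.48 and 1.48, limma adjusted p = 1.9e-06 and 0.0013). Abcc9, Des, Cox4i2 and Ndufa4l2 were also called higher in PDGF-NS minus LH-NS, and Foxs1, Mcam and Notch3 lower. Ndufa4l2 was listed at 0 in every LH-NS library. In IGF-NS minus LH-NS the calls were Anpep and Tbx18 higher, and Mcam, Des and Foxs1 lower. Pdgfrb, the PDGF receptor of mural cells, averaged 328 ± 16.8 FPKM in PDGF-NS, 462 ± 81.2 FPKM in IGF-NS and 434 ± 107 FPKM in LH-NS and was not called. Mcam, an adhesion molecule, averaged 9.33 ± 2.58 FPKM in PDGF-NS, 17.2 ± 2.5 FPKM in IGF-NS and 60.6 ± 7.8 FPKM in LH-NS (SD, n = 3 each), and was lower than LH-NS in both (log2 fold changes -2.60 and -1.76, limma adjusted p = 1.2e-05 and 0.00022). Notch3, a receptor of mural cells, averaged 16.3 ± 3.19 FPKM in PDGF-NS, 50.4 ± 6.89 FPKM in IGF-NS and 63.5 ± 25.1 FPKM in LH-NS, and was lower in PDGF-NS than in LH-NS (log2 fold change -1.85, limma adjusted p = 0.00049). Rgs5 and Higd1b of that list were listed at 0 throughout, and the 3 rows named Cd248 were at most 0.154 FPKM.

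Leukocyte markers, of which 2 of 13 rows passed the filter, had a summed FPKM of 43.9 to 89.8 in PDGF-NS, 23 to 31.2 in IGF-NS and 18.1 to 27 in LH-NS, and both tested genes were higher in PDGF-NS than in LH-NS. Ptprc, Lyz2, C1qa, C1qb, Aif1 and Tyrobp were listed at 0 in every library. Endothelial markers, 2 of 12 tested, summed to 6.57 to 10.3 FPKM in PDGF-NS, 4.26 to 6.61 in IGF-NS and 11 to 11.1 in LH-NS, with Cdh5, Kdr, Emcn and Cldn5 listed at 0. By limma 0 endothelial markers were called in PDGF-NS minus LH-NS (0 higher and 1 lower at an unadjusted p under 0.05), and 1 was lower in IGF-NS minus LH-NS. Fibroblast markers, 9 of 11 tested, summed to 3416 to 4443 FPKM in PDGF-NS, 6552 to 7836 in IGF-NS and 3518 to 4991 in LH-NS. By limma 5 of these 9 were higher and 0 lower in each comparison with LH-NS. That was the direction of Rgs3 and Rgs10, but not of Rgs4, or of Rgs16 in IGF-NS minus LH-NS. The median log2 fold changes of the 9 fibroblast markers were 0.95 in PDGF-NS minus LH-NS and 0.85 in IGF-NS minus LH-NS. At an unadjusted p under 0.05 the counts were 5 higher and 0 lower for PDGF-NS, and 6 higher and 0 lower for IGF-NS. Cardiomyocyte markers, 2 of 11 tested, summed to 50.2 to 98 FPKM in PDGF-NS, 53.8 to 112 in IGF-NS and 516 to 866 in LH-NS, with Myh6 and Myh7 listed at 0; 2 were lower in PDGF-NS minus LH-NS and 1 was lower in IGF-NS minus LH-NS. Beside these counts, 31.0% of all genes were called in PDGF-NS minus LH-NS and 24.9% in IGF-NS minus LH-NS. The part of any other cell type in the RGS levels was not tested. In these bulk libraries fewer cells of a type and less RNA per cell cannot be told apart.

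For each member that passed the filter, the genes with the most similar pattern were named by Pearson's r of log2(FPKM + 1) over the 9 libraries, among 8226 genes that had a symbol and averaged 5 FPKM or more. The libraries share their sets, so r mainly follows the set means, and the values are a description. For Rgs2 they were Opn3 (r = 0.990), Fam162a (0.979) and Nktr (0.977). For Rgs3 they were Atpaf2 (r = 0.988), Fam216a (0.980) and Thbs2 (0.978). For Rgs10 they were Cenpv (r = 0.987), Rad52 (0.986) and Crot (0.985). For Rgs16 they were Nus1 (r = 0.963), Spry4 (0.945) and Sntb1 (0.936). Opn3, an opsin, averaged 25.4 FPKM in PDGF-NS, 8.11 FPKM in IGF-NS and 5.25 FPKM in LH-NS, close to Rgs2 in level as well as in pattern. Spry4, a feedback inhibitor of receptor tyrosine kinase signalling, averaged 24 FPKM in PDGF-NS, 12 FPKM in IGF-NS and 35.8 FPKM in LH-NS.

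**Figure D4:**
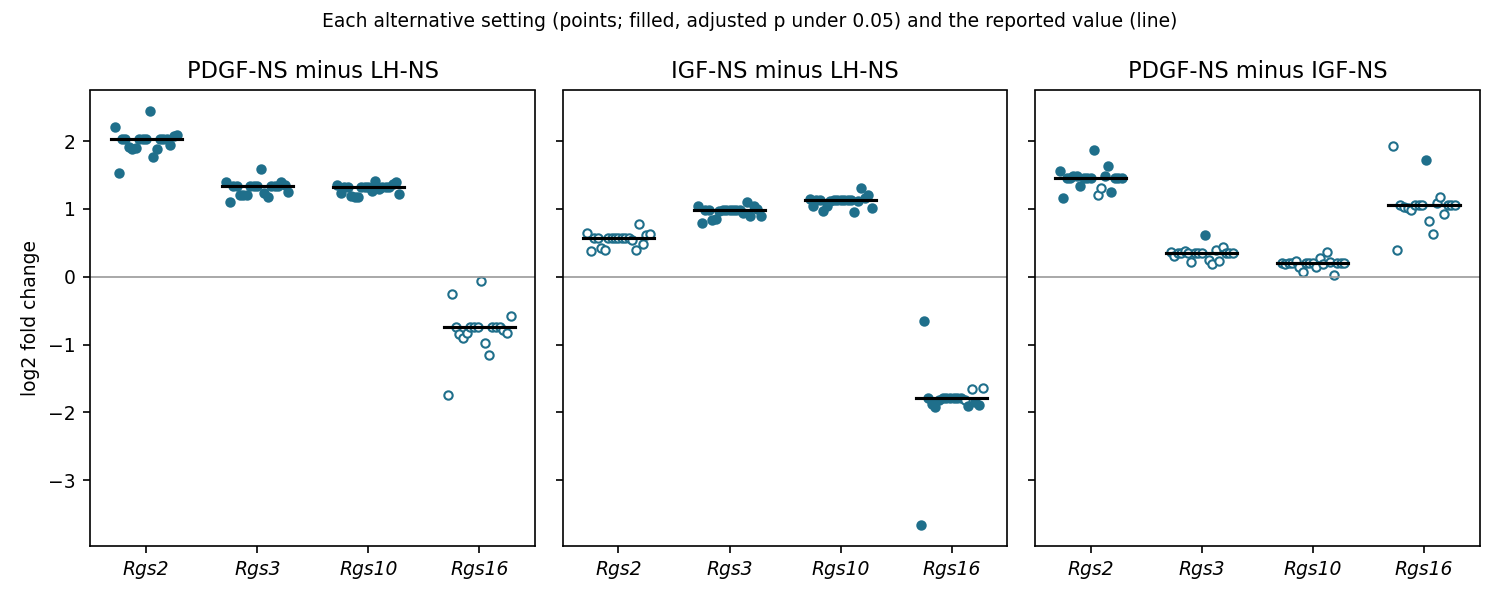
Log2 fold change (vertical axis) of the 4 tested members in the 3 comparisons, with 1 point for each alternative setting and a line at the reported value; filled points passed an adjusted p under 0.05. For Rgs3 and Rgs10 all points in both comparisons with LH-NS are filled and above 0, while the Rgs16 points in IGF-NS minus LH-NS run from -3.66 to -0.65.

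FPKM summed to between 616765.2 and 748000.5 per library, and 11047 to 11348 genes reached 1 FPKM. FPKM are already divided by library size, so these sums do not measure it. Relative depth, estimated from the steps between low values and set to 1 in LH-NS library 1, ran from 0.953 to 1.31 in PDGF-NS, 0.722 to 1.157 in IGF-NS and 0.664 to 1 in LH-NS. The absolute depth is unknown, so no counting interval was given. Over all genes, 2355 were higher and 1166 lower in PDGF-NS minus LH-NS, a split that became 1765 and 1680 with median ratio scaling. For IGF-NS minus LH-NS, 1976 were higher and 851 lower, against 1136 and 1232 with median ratio scaling. In PDGF-NS minus IGF-NS, 948 were higher and 859 lower, against 736 and 1481 when libraries were rescaled to 1 common sum. Median ratio scaling moved the median log2 fold change of all genes to 0.01 in both comparisons with LH-NS. Under it, in PDGF-NS minus LH-NS, Rgs2 was at 1.91, Rgs3 at 1.21 and Rgs10 at 1.19, all still called. Between IGF-NS and LH-NS, Rgs3 was at 0.83, Rgs10 at 0.97 and Rgs16 at -1.87, all still called. Rescaling to 1 common sum moved the median in PDGF-NS minus IGF-NS to -0.14, and Rgs2 was at 1.33 there and still called.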

How the data were processed

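The 9 RNA libraries of S31 cells were prepared with a Lexogen SENSE mRNA kit after Trizol extraction, per the labels' protocols. The authors deposited 1 table of FPKM per gene. GSNAP and Cufflinks are named in the submitters' processing notes, without versions, and the genome build is not given in the sources used here. Cufflinks estimates can fail and be listed at 0. Of 26407 rows, 2 duplicate rows at 0 and 4 genes holding the placeholder 999999999 in 10 cells were left out. Because FPKM are not counts, limma 3.58.1 (R 4.3.3) was fitted with a variance trend to log2(FPKM + 1) of all 9 libraries, with set as the only term, keeping genes that averaged 1 FPKM or more. P-values are two-sided and adjusted by Benjamini-Hochberg over the 11376 genes of each comparison. Alternatives were other pseudocounts, filters and scalings, quantile normalization, a fit of 6 libraries, no variance trend, a replicate block and leaving out each library. Motifs were searched in RefSeq promoter windows of GRCr8.

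The members and gene lists were chosen with earlier results of these data known. Beside the members, the genes eligible to be named were up to 4 called genes a list and comparison with the largest log2 fold change, other RGS genes that averaged 1 FPKM or more, and the 3 genes most like each member; marker genes came from lists.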

Additional observations from a re-analysis of the deposited data

How the results depend on the processing

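Over 228 alternative values for the members, 219 kept their direction and their side of the threshold, 5 were no longer called, 4 became called and 0 reversed. The called differences of Rgs2 in PDGF-NS minus LH-NS, and of Rgs3 and Rgs10 in both comparisons with LH-NS, were called under all alternatives run for them. The exceptions were Rgs16 in IGF-NS minus LH-NS and Rgs2, Rgs3 and Rgs16 in PDGF-NS minus IGF-NS when single libraries were left out, and Rgs4, tested only without the filter. Rgs16 could not be tested with a minimum mean of 5 FPKM. Leaving out 1 library at a time, members called ran from 3 to 3 in PDGF-NS minus LH-NS, 2 to 3 in IGF-NS minus LH-NS and 0 to 3 in PDGF-NS minus IGF-NS (reported values 3, 3 and 1). Without PDGF-NS library 1 the last was 3, and it was 0 without library 2 or 3. Genes called ran from 2360 to 3757, 1752 to 2957 and 1009 to 2152 in these comparisons. The lowest counts came without IGF-NS library 1 (1752) for IGF-NS minus LH-NS and without PDGF-NS library 3 (1009) or 2 (1193) for PDGF-NS minus IGF-NS. Other RGS genes called ran from 3 to 6, 1 to 3 and 1 to 3 (reported 5, 4 and 2). With a minimum mean of 5 FPKM they were 3 in PDGF-NS minus LH-NS and 2 in IGF-NS minus LH-NS, with fewer genes tested, and with only the 6 libraries of the comparison 2 in IGF-NS minus LH-NS; the cause was not tested. No pairing by replicate number was seen: deviations of same-numbered libraries correlated from -0.276 to 0.253, over 0.1 in 2 of 9 pairs. Differently numbered libraries ran from -0.513 to 0.407, over 0.1 in 5 of 18 pairs. Deviations within a set of 3 sum to 0, so this check cannot exclude shared cultures or batches. With the replicate block, members called stayed at 3, 3 and 1, other RGS genes were 5, 3 and 2, and genes called were 3221, 2457 and 1530. Values under about 1 FPKM may be limited by depth, which was not tested because the absolute depth is unknown. They include the growth factor set values of Rgs4 and the IGF-NS values of Rgs16.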
